A study of Arabidopsis thaliana with 16 samples.

Results

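The genes described here encode the enzymes that make jasmonate in Arabidopsis thaliana. They were chosen by name as the 10 genes LOX2 (AT3G45140), LOX3 (AT1G17420), LOX4 (AT1G72520), AOS (AT5G42650), AOC1 (AT3G25760), AOC2 (AT3G25770), AOC3 (AT3G25780), OPR3 (AT2G06050), OPCL1 (AT1G20510) and JAR1 (AT2G46370), out of 25444 genes with a read in at least 1 library. All 10 had reads in each of the 16 libraries and passed the expression filter, which left 19312 genes to test. Libraries were made from the RNA of inflorescences and juvenile leaves, from wild-type Columbia-0 (WT) and from zed1-D in that ecotype. ZED1 is a pseudokinase that works with an immune receptor, and the labels say nothing more of the zed1-D allele. Plants were kept at 18 °C under 16 h of light until the main stem had bolted and were then moved to 28 °C. The 8 groups are WT and zed1-D plants taken 0, 3, 12 and 48 h after the move, so the 0 h groups had seen only 18 °C, and each group held 2 libraries, replicate 1 and replicate 2. Some labels call the same plants seedlings, which differs from the bolted plants of the treatment protocol.

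Jasmonate is an oxygenated fatty acid hormone. Lipoxygenases of the chloroplast add oxygen to linolenic acid, allene oxide synthase (AOS) and allene oxide cyclase (AOC) turn the product into a ring compound, and the peroxisome reduces it (OPR3), loads it onto coenzyme A (OPCL1) and shortens it by beta-oxidation. JAR1 then joins jasmonic acid to isoleucine, and this conjugate binds the COI1 and JAZ coreceptor, which releases MYC transcription factors from JAZ repression. In leaves the hormone is known for responses to wounding and chewing insects, and in flowers for stamen elongation and pollen release, and many of the synthesis genes are themselves induced by jasmonate.

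The 250 bases upstream of the annotated gene start are shown for LOX4 and AOC3, which differed most between the genotypes, and for AOS, a single-copy gene in Arabidopsis. Positions and sequences are from the RefSeq annotation of TAIR10.1. LOX4 lies on the plus strand (chr1:27308263-27308512), AOC3 on the plus strand (chr3:9408910-9409159) and AOS on the minus strand (chr5:17099596-17099845). Each is written 5′ to 3′ toward the gene, and capitals mark every match on either strand to the G-box CACGTG, the related T/G-box AACGTG, the GCC-box GCCGCC and the W-box in the forms TTGACC and TTGACT, motifs known as binding sites of MYC, ERF and WRKY factors.
LOX4: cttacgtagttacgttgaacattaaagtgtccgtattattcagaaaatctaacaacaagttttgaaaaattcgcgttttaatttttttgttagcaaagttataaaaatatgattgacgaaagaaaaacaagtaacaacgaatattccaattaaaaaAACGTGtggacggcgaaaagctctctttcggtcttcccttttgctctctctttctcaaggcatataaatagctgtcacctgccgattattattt
AOC3: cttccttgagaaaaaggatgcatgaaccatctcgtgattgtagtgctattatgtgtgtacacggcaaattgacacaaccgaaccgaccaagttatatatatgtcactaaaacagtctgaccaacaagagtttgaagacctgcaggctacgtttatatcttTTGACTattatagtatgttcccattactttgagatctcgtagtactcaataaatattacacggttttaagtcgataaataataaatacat
AOS: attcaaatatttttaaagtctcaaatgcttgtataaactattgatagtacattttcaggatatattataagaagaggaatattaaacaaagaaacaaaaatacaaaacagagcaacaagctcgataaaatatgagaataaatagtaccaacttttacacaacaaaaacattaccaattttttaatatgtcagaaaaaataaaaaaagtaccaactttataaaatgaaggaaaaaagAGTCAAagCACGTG
Among the 10 windows the G-box was in AOS alone, against 6.49% of all 27443 windows of the same length. The T/G-box was in LOX4 and AOC1 (7.54% of all windows), TTGACC in LOX2 (12.2%), TTGACT in LOX3, AOS and AOC3 (19.1%), and the GCC-box in none (1.87%). LOX4 and AOC3 had no motif in common. A match describes these letters in these windows and is not a binding site, and no overlap between 2 of the motifs occurred in the 3 windows shown.

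Libraries of replicate 1 held 4.74 M to 5.86 M counted reads, those of replicate 2 10.35 M to 11.39 M. Levels are CPM, counts per 1 M counts of a library, scaled by TMM factors, differences are log2 ± standard error from edgeR's quasi-likelihood fit over all 16 libraries, and adjusted p is that fit's p after Benjamini-Hochberg adjustment over all tested genes of a comparison. A gene is called at an adjusted p under 0.05. The replicate number separated the libraries, so the adjusted p with the number as a block follows wherever it changes a call for 1 of the 10 genes. Replicate 1 gave the higher CPM in 8 of 8 groups for LOX2, LOX3, AOS, AOC1, AOC2, OPCL1 and JAR1, in 7 of 8 for LOX4 and OPR3 and in 5 of 8 for AOC3. The labels do not say whether replicates came from separate plants, so p-values measure the spread between these libraries, which may be technical. Defining markers of the sampled organs were present, with summed CPM of 49.4 to 108 for the 7 floral organ identity genes and 28229 to 48336 for the 6 leaf photosynthesis genes. Root-hair genes, which mark a tissue that was not collected, summed to at most 1.88 CPM, with EXPA7, RHD6 and LRX1 at 0 in every library. RNA of whole organs cannot tell fewer cells of a type from less RNA per cell.

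Levels of the 10 genes spanned a wide range. Per kilobase of transcript, LOX2 stood at 707 ± 225 CPM per kb (SD, n = 2) in WT at 0 h, followed by AOC2 at 135 ± 20.1 and AOS at 53.9 ± 11.7. JAR1 (31.7 ± 8.29), OPR3 (27.4 ± 5.49) and OPCL1 (24.0 ± 4.37 CPM per kb) came next, and the 2 libraries of each overlapped those of its neighbour in this order. AOC3 followed at 8.10 ± 2.03, then LOX3 at 4.64 ± 1.20 and AOC1 at 3.63 ± 0.417 CPM per kb, whose libraries overlapped, and LOX4 was lowest at 2.35 ± 0.120. In zed1-D at 12 h the order of level per kilobase had changed below LOX2 and AOC2. AOC3 (109 ± 1.49) overlapped AOS (106 ± 19.6 CPM per kb) behind LOX2 (1458 ± 445) and AOC2 (337 ± 59.6), and LOX4 (22.8 ± 5.60) stood above AOC1 (15.3 ± 1.51) and LOX3 (14.3 ± 2.18 CPM per kb).

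**Figure D1:**
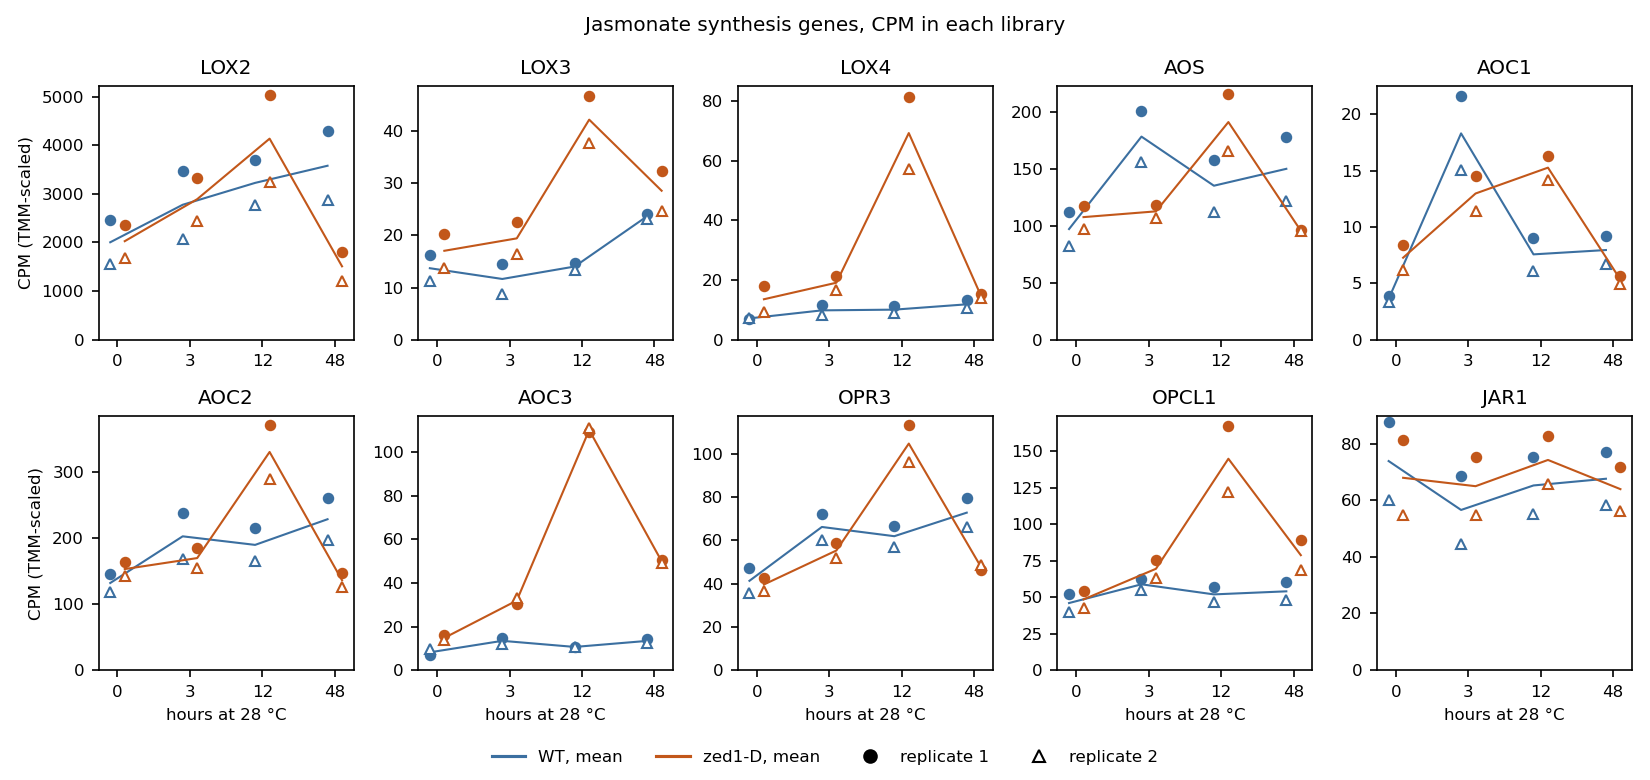
CPM of each synthesis gene in every library against hours at 28 °C, with circles for replicate 1, triangles for replicate 2 and lines through the group means (blue WT, orange zed1-D); each panel has its own axis from 0. Every gene but AOC1 has its highest group mean in zed1-D at 12 h, though for LOX2, AOS and JAR1 these libraries overlap those of the next group. AOC1 has its highest group mean in WT at 3 h (21.6 and 15.0 CPM), and JAR1 stays between 44.5 and 87.5 CPM.

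Set against WT of the same time, zed1-D had higher synthesis genes mainly at 12 h. At 0 h none of the 10 was called, against 0.0414% of all tested genes higher and 0.00518% lower, 3 had an unadjusted edgeR p under 0.05 and DESeq2 called 0. At 3 h AOC3 was higher (2.83% of all genes higher, 0.233% lower). At 12 h LOX3, LOX4, AOC1, AOC3, OPR3 and OPCL1 were higher, which is 6 of 10 against 7.87% of all genes, and none was lower (1.82%). At 48 h AOC3 was still higher (8.32%), while LOX2 and OPR3 were lower (6.24%). The median log2 difference of the 10 was 0.18, 0.13, 0.92 and -0.32 at 0, 3, 12 and 48 h, beside medians over all tested genes of 0.00, -0.01, 0.00 and -0.03.

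Blocked, 3 genes were higher at 0 h (1.17% of all genes) and none lower (1.1%), 3 higher and 3 lower at 3 h (9.07% and 8.04%), 9 higher at 12 h (19.8%), and 2 higher and 5 lower at 48 h (22.1% and 23.5%). JAR1 was the gene left out at 12 h. Every unblocked call was also a blocked call. Groups of 2 libraries that do not overlap, as named for single genes below, were common among all tested genes. Both zed1-D libraries lay above both WT libraries for 11.1%, 17.5%, 23.6% and 24.3% of them at 0, 3, 12 and 48 h. They lay below both for 10.7%, 14.8%, 19.2% and 25.7%.

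**Figure D2:**
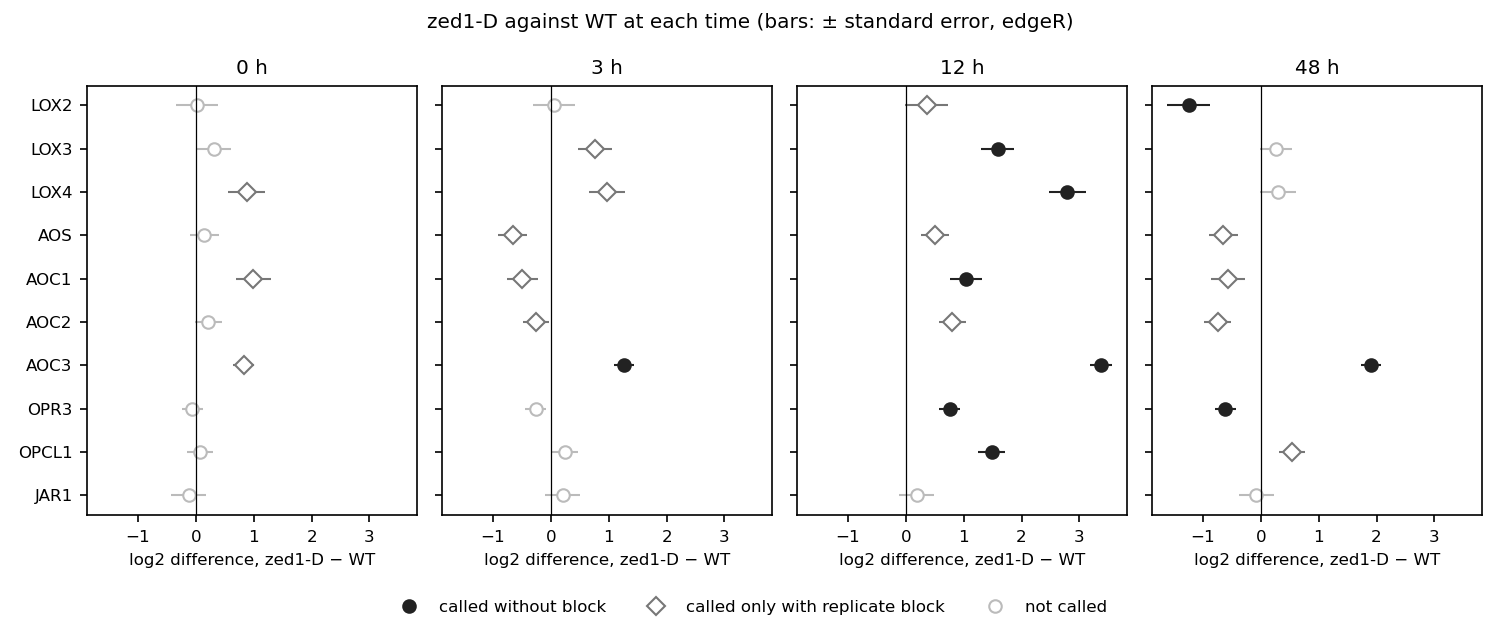
Log2 difference of zed1-D from WT for each gene at each time, with bars of ± 1 standard error from the unblocked edgeR fit; filled circles are called without a block, open diamonds only with the replicate block and pale circles in neither. AOC3 is called at 3, 12 and 48 h, and LOX2 and OPR3 lie below 0 at 48 h after AOC3 and LOX4 had the largest differences at 12 h.

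Within a genotype, the change after the move was set against 0 h of that genotype, so the 3 comparisons of a genotype share their 0 h libraries. In WT only AOC1 rose by 3 h (0.839% of all genes rose), none was called at 12 h (0.823% rose, 0.689% fell; 3 genes had an unadjusted edgeR p under 0.05 and DESeq2 called 0), and OPR3 rose by 48 h (1.78%). In zed1-D AOC3 rose by 3 h (2.02%). By 12 h LOX3, LOX4, AOS, AOC1, AOC2, AOC3, OPR3 and OPCL1 rose there, 8 of 10 against 10.4% of all genes, and none fell (4.38%). At 48 h AOC3 and, at the edge of the threshold, OPCL1 were above 0 h (10.7%) and none was below (9.34%). The median log2 change of the 10 genes at 3, 12 and 48 h was 0.54, 0.47 and 0.75 in WT and 0.50, 1.22 and 0.02 in zed1-D, with medians over all genes between -0.01 and 0.03.

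With the block, WT had 7 genes higher and 1 lower at 3 h (9.35% and 10.9% of all genes), 5 higher at 12 h (10.4%) and 8 higher at 48 h (14.1%). In zed1-D it had 6 higher at 3 h (12.8%), 9 higher and none lower at 12 h (24.4% and 19.5%), and 4 higher and 1 lower at 48 h (26.5% and 26.3%).

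LOX2, the lipoxygenase that supplies most of the jasmonate made in wounded leaves, took 96.9% to 99.3% of the counts of LOX2, LOX3 and LOX4 in every library. LOX2 libraries stood at 2456, 3473, 3690.2 and 4289.6 CPM in WT replicate 1 at 0, 3, 12 and 48 h, and at 1553, 2078, 2761 and 2867 CPM in WT replicate 2. LOX2 in zed1-D stood at 2369, 3329.9, 5027 and 1803 CPM in replicate 1 and 1685, 2451, 3243 and 1217 CPM in replicate 2 at these times. The zed1-D group of 48 h had the lowest mean and overlapped the 0 h groups, and both its libraries lay below both WT libraries of 48 h. At 0, 3 and 12 h the genotypes overlapped. At 48 h LOX2 was lower in zed1-D by -1.24 ± 0.37 (adjusted p = 0.046). This call was lost in 10 of 16 single-library omissions, at most to adjusted p = 0.27 without zed1-D 48 h replicate 2. At 12 h the difference was 0.36 ± 0.37 (adjusted p = 0.73, or adjusted p = 0.00044 with the block). Against 0 h, WT stood at 0.47 ± 0.37 at 3 h (adjusted p = 0.77, or adjusted p = 1.6e-05 with the block) and 0.84 ± 0.37 at 48 h (adjusted p = 0.31, or adjusted p = 6.6e-11 with the block), and zed1-D at 1.03 ± 0.37 at 12 h (adjusted p = 0.094, or adjusted p = 1.2e-13 with the block) and -0.42 ± 0.37 at 48 h (adjusted p = 0.48, or adjusted p = 9.8e-06 with the block). WT at 12 h stood at 0.69 ± 0.37 (adjusted p = 0.55, or adjusted p = 4.9e-09 with the block) and zed1-D at 3 h at 0.51 ± 0.37 (adjusted p = 0.68, or adjusted p = 1.9e-06 with the block).

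LOX3 and LOX4 are lipoxygenases of the same class, required together for male fertility and known from vascular tissue and flowers. LOX4 libraries stood at 6.90, 11.5, 11.2 and 13.2 CPM in WT replicate 1 at 0, 3, 12 and 48 h, and at 7.41, 8.20, 8.95 and 10.5 CPM in WT replicate 2. LOX4 in zed1-D stood at 18.0, 21.4, 81.3 and 15.2 CPM in replicate 1 and 9.15, 16.8, 57.2 and 13.9 CPM in replicate 2 at these times. All zed1-D libraries were above both WT libraries of their time, and those of 12 h stood apart from every other library. LOX4 was 6.92-fold higher in zed1-D at 12 h (log2 2.79 ± 0.32, adjusted p = 0.00018), a call that held in all 16 single-library omissions. The differences at 0 h (0.88 ± 0.32, adjusted p = 1, or adjusted p = 0.028 with the block) and 3 h (0.97 ± 0.32, adjusted p = 0.19, or adjusted p = 4.6e-05 with the block) were called only with the block. At 48 h the difference was 0.30 ± 0.31 (adjusted p = 0.62). Within zed1-D, LOX4 rose by 2.38 ± 0.31 by 12 h (adjusted p = 0.00038), and at 48 h it stood 0.13 ± 0.31 above its 0 h level (adjusted p = 0.83). At 3 h it was above 0 h by 0.52 ± 0.31 (adjusted p = 0.56, or adjusted p = 0.0048 with the block), and in WT at 48 h by 0.71 ± 0.32 (adjusted p = 0.33, or adjusted p = 0.0077 with the block).

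LOX3 libraries stood at 16.2, 14.5, 14.7 and 24.2 CPM in WT replicate 1 at 0, 3, 12 and 48 h, and at 11.2, 8.85, 13.4 and 23.2 CPM in WT replicate 2. LOX3 in zed1-D stood at 20.3, 22.5, 46.8 and 32.5 CPM in replicate 1 and 13.9, 16.4, 37.7 and 24.7 CPM in replicate 2 at these times. The genotypes overlapped at 0 h and did not at the later times. LOX3 was higher in zed1-D at 12 h by 1.59 ± 0.29 (3.01-fold, adjusted p = 0.0044), and the adjusted p was 0.059 without WT 12 h replicate 2. At 3 h the difference was 0.76 ± 0.30 (adjusted p = 0.33, or adjusted p = 0.00028 with the block), and at 48 h it was 0.27 ± 0.28 (adjusted p = 0.64). WT itself was 0.80 ± 0.29 above 0 h at 48 h (adjusted p = 0.19, or adjusted p = 1.4e-05 with the block). In zed1-D LOX3 was 0.75 ± 0.29 above 0 h at 48 h (adjusted p = 0.09, or adjusted p = 9.7e-06 with the block), and it rose by 1.32 ± 0.29 by 12 h (adjusted p = 0.0092). The 12 h rise was lost without zed1-D 0 h replicate 2 (adjusted p = 0.1) and without zed1-D 12 h replicate 1.

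AOS makes the unstable allene oxide that the cyclases take up. AOS libraries stood at 112, 200.4, 158 and 178 CPM in WT replicate 1 at 0, 3, 12 and 48 h, and at 82.1, 156, 112 and 122 CPM in WT replicate 2. AOS in zed1-D stood at 117, 118, 216 and 96.0 CPM in replicate 1 and 97.5, 107, 166 and 95.0 CPM in replicate 2 at these times. WT was highest at 3 h and zed1-D at 12 h, and the genotypes did not overlap at 3, 12 or 48 h, with WT above at 3 and 48 h and zed1-D above at 12 h. None of these genotype differences was called without the block: -0.66 ± 0.25 at 3 h (adjusted p = 0.3, or adjusted p = 2.3e-06 with the block), 0.50 ± 0.25 at 12 h (adjusted p = 0.29, or adjusted p = 2.6e-05 with the block) and -0.65 ± 0.25 at 48 h (adjusted p = 0.11, or adjusted p = 2.7e-06 with the block). AOS rose in zed1-D by 12 h (0.83 ± 0.25, adjusted p = 0.045), a call that was lost in 11 of 16 single-library omissions, at most to adjusted p = 0.25 without zed1-D 12 h replicate 1. At 3 h WT was 0.88 ± 0.25 above 0 h (adjusted p = 0.12, or adjusted p = 5.6e-09 with the block) and zed1-D 0.07 ± 0.25 (adjusted p = 0.99). The difference between these 2 changes was -0.81 ± 0.35 (adjusted p = 0.77, or adjusted p = 5.4e-05 with the block). Later WT levels were above 0 h by 0.48 ± 0.25 (adjusted p = 0.52, or adjusted p = 0.00035 with the block) at 12 h and 0.63 ± 0.25 (adjusted p = 0.24, or adjusted p = 4.1e-06 with the block) at 48 h.

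The allene oxide cyclases AOC1, AOC2 and AOC3 catalyse the same reaction and lie side by side on chromosome 3 (TAIR10.1, chr3:9403779-9405338, chr3:9406669-9408071 and chr3:9409160-9411090), and AOC4 lies on chromosome 1. Reads from stretches that near copies share may be missing from counts of uniquely mapped reads. Of the 50-base windows in exons, 2.20% of AOC1, 0.0832% of AOC2 and 1.60% of AOC3 occur in another AOC gene. AOC3 libraries stood at 6.71, 14.9, 10.8 and 14.4 CPM in WT replicate 1 at 0, 3, 12 and 48 h, and at 9.60, 11.9, 10.5 and 12.4 CPM in WT replicate 2. AOC3 in zed1-D stood at 15.9, 30.5, 109 and 50.7 CPM in replicate 1 and 13.7, 33.3, 111 and 49.2 CPM in replicate 2 at these times. Both zed1-D libraries were above both WT libraries at every time, and from 3 h on above every WT library of any time.

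AOC3 had the largest genotype difference of the 10 genes at 3, 12 and 48 h. It was 1.26 ± 0.18 at 3 h (2.40-fold, adjusted p = 0.0019), 3.37 ± 0.19 at 12 h (10.4-fold, adjusted p = 3.9e-06) and 1.91 ± 0.18 at 48 h (3.75-fold, adjusted p = 4.6e-05). These 3 calls held in all 16 single-library omissions, though at 3 h the adjusted p was 0.1 when the 2 compared groups were fitted alone. Before the move the difference was 0.83 ± 0.19 (adjusted p = 0.36, or adjusted p = 0.0064 with the block). Within zed1-D, AOC3 rose by 1.12 ± 0.18 by 3 h (adjusted p = 0.0074) and 2.90 ± 0.18 by 12 h (adjusted p = 5e-06), and at 48 h it was still 1.76 ± 0.18 above 0 h (adjusted p = 7.3e-05). The 3 h rise was lost without either zed1-D 0 h library or zed1-D 3 h replicate 2, at most to adjusted p = 0.1. In WT the changes were 0.68 ± 0.19 at 3 h (adjusted p = 0.11, or adjusted p = 0.011 with the block), 0.36 ± 0.19 at 12 h (adjusted p = 0.54) and 0.68 ± 0.19 at 48 h (adjusted p = 0.082, or adjusted p = 0.0053 with the block).

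AOC2, the most abundant of the 3 cyclases, stood at 146, 237, 215 and 259.9 CPM in WT replicate 1 at 0, 3, 12 and 48 h, and at 118, 168, 165 and 197 CPM in WT replicate 2. AOC2 in zed1-D stood at 163, 185, 372 and 147 CPM in replicate 1 and 143, 154, 289 and 125 CPM in replicate 2 at these times. The zed1-D libraries were above WT at 12 h and below it at 48 h, without overlap. Neither difference was called without the block (0.80 ± 0.23 at 12 h, adjusted p = 0.053, or adjusted p = 1e-10 with the block; -0.75 ± 0.23 at 48 h, adjusted p = 0.053, or adjusted p = 1.5e-09 with the block), and DESeq2 called both (adjusted p = 0.039 and 0.044). AOC2 rose in zed1-D by 12 h (1.11 ± 0.23, adjusted p = 0.0077). That rise was lost without zed1-D 0 h replicate 2 (adjusted p = 0.075) and without zed1-D 12 h replicate 1. At 3 h AOC2 differed between the genotypes by -0.26 ± 0.23 (adjusted p = 0.95, or adjusted p = 0.035 with the block). WT was above 0 h by 0.62 ± 0.23 (adjusted p = 0.28, or adjusted p = 5.2e-07 with the block) at 3 h, 0.52 ± 0.23 (adjusted p = 0.4, or adjusted p = 7e-06 with the block) at 12 h and 0.79 ± 0.23 (adjusted p = 0.1, or adjusted p = 1.3e-09 with the block) at 48 h.

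AOC1 had the lowest counts of the 3 cyclases in most libraries. AOC1 libraries stood at 3.92, 21.6, 9.06 and 9.19 CPM in WT replicate 1 at 0, 3, 12 and 48 h, and at 3.33, 15.0, 6.08 and 6.72 CPM in WT replicate 2. AOC1 in zed1-D stood at 8.36, 14.5, 16.3 and 5.69 CPM in replicate 1 and 6.19, 11.4, 14.2 and 4.96 CPM in replicate 2 at these times. Both WT libraries of 3 h lay above both zed1-D libraries of 3 h, and the order was the other way round at 0 and 12 h. AOC1 rose 5.04-fold in WT by 3 h (log2 2.33 ± 0.29, adjusted p = 0.0023), and the call held in all 16 omissions but not when the 2 groups were fitted alone (adjusted p = 0.34). In zed1-D the change by 3 h was 0.85 ± 0.28 (adjusted p = 0.17, or adjusted p = 0.00028 with the block), and the difference between the genotypes' changes was -1.48 ± 0.40 (adjusted p = 0.18, or adjusted p = 0.00028 with the block). By 12 h AOC1 rose in zed1-D (1.09 ± 0.28, adjusted p = 0.021) and was higher there than in WT (1.04 ± 0.27, adjusted p = 0.035). The latter call was lost without either zed1-D 12 h library, WT 12 h replicate 2 (adjusted p = 0.31) or WT 0 h replicate 1, and the former without either zed1-D 12 h library or zed1-D 0 h replicate 2 (adjusted p = 0.19). At 0 h zed1-D was 0.99 ± 0.30 above WT (adjusted p = 0.94, or adjusted p = 0.0097 with the block) and at 48 h -0.57 ± 0.29 from it (adjusted p = 0.25, or adjusted p = 0.027 with the block). The genotype difference at 3 h was -0.49 ± 0.26 (adjusted p = 0.64, or adjusted p = 0.024 with the block). WT stood above 0 h by 1.04 ± 0.30 (adjusted p = 0.15, or adjusted p = 0.00098 with the block) at 12 h and 1.12 ± 0.30 (adjusted p = 0.076, or adjusted p = 0.00019 with the block) at 48 h.

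AOC3 made up a larger part of the summed AOC1, AOC2 and AOC3 counts in zed1-D. AOC4 is outside this sum, so the shares are not of all cyclase transcripts. It had 609 and 989 counts in WT at 0 h and 429 and 885 in zed1-D at 48 h. The AOC3 share of the counts of AOC1, AOC2 and AOC3 at 0, 3, 12 and 48 h was 4.29%, 5.45%, 4.60% and 5.07% in WT replicate 1, and 7.33%, 6.13%, 5.78% and 5.74% in WT replicate 2. In zed1-D the share was 8.46%, 13.3%, 22.0% and 25.0% in replicate 1, and 8.42%, 16.7%, 26.8% and 27.4% in replicate 2. The lowest zed1-D share from 3 h on has a 95% Wilson interval of 11.5% to 15.3%, and the highest WT share one of 6.07% to 8.83%, intervals that cover counting error only. The zed1-D share at 48 h was no lower than at 12 h although the AOC3 level was, and AOC2 stood at 147 and 125 CPM. LOX4 took 0.278% to 0.472% of the LOX2, LOX3 and LOX4 counts in WT, 1.58% and 1.71% in zed1-D at 12 h, and 0.821% and 1.11% in zed1-D at 48 h. Other lipoxygenase genes are outside that sum, such as LOX6 with 398 and 571 counts in WT at 0 h.

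**Figure D3:**
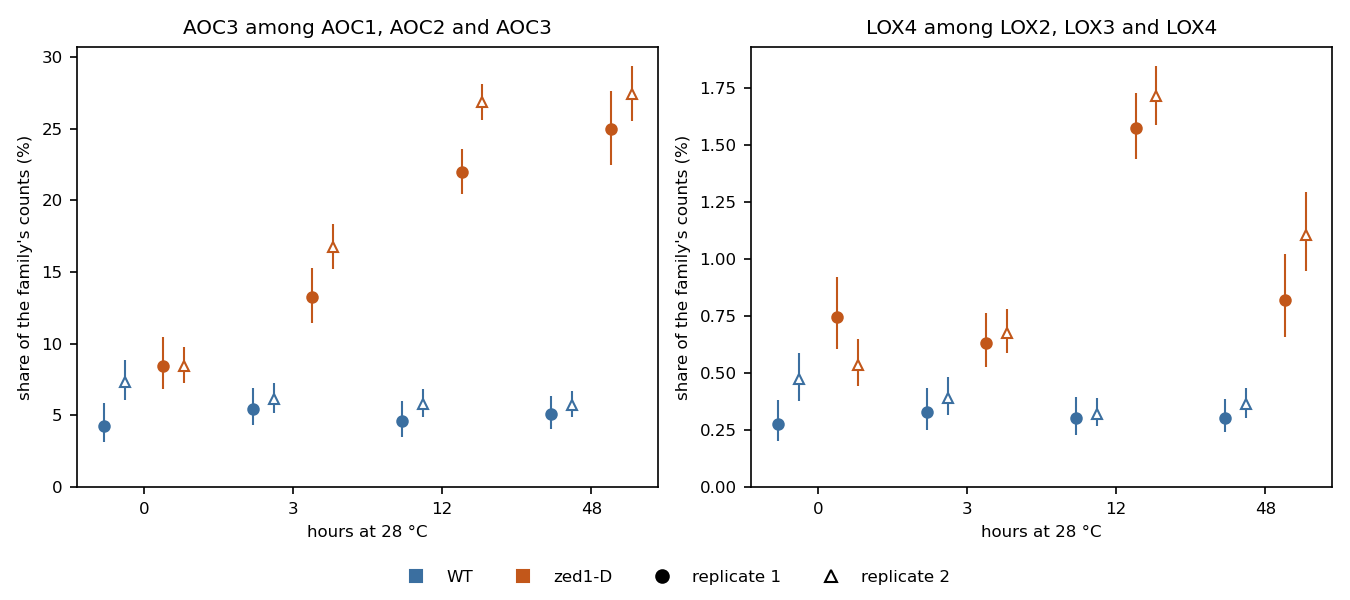
Share (%) of AOC3 in the counts of AOC1, AOC2 and AOC3 (left) and of LOX4 in the counts of LOX2, LOX3 and LOX4 (right) in each library against hours at 28 °C, with 95% Wilson intervals that cover counting error only. The AOC3 share in zed1-D goes from 8.42% and 8.46% at 0 h to 25.0% and 27.4% at 48 h, and no WT library exceeds 7.33%.

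OPR3 reduces the ring compound in the peroxisome, and plants without it are male sterile. OPR3 libraries stood at 47.2, 72.1, 66.9 and 79.5 CPM in WT replicate 1 at 0, 3, 12 and 48 h, and at 35.5, 60.4, 57.1 and 66.2 CPM in WT replicate 2. OPR3 in zed1-D stood at 42.6, 59.0, 114 and 46.5 CPM in replicate 1 and 36.6, 51.7, 96.1 and 48.6 CPM in replicate 2 at these times. The zed1-D libraries lay above both of WT at 12 h and below both at 3 and 48 h. The difference at 3 h was called neither with nor without the block, and 14.8% of all genes were lower without overlap at that time. OPR3 was 1.69-fold higher in zed1-D at 12 h (log2 0.76 ± 0.18, adjusted p = 0.021) and 1.53-fold lower at 48 h (-0.61 ± 0.18, adjusted p = 0.045). The first call was lost without either WT 12 h library or zed1-D 12 h replicate 1, at most to adjusted p = 0.18, and the second held in 3 of 16 omissions, with adjusted p = 0.29 without WT 48 h replicate 1. OPR3 rose in zed1-D by 12 h (1.41 ± 0.18, adjusted p = 0.0004) and in WT by 48 h (0.82 ± 0.18, adjusted p = 0.037), the latter call holding in 2 of 16 omissions. At 3 h WT was 0.68 ± 0.18 (adjusted p = 0.1, or adjusted p = 1.8e-06 with the block) and zed1-D 0.48 ± 0.18 (adjusted p = 0.25, or adjusted p = 0.00038 with the block) above 0 h. The corresponding values were 0.59 ± 0.18 (adjusted p = 0.19, or adjusted p = 1.8e-05 with the block) in WT at 12 h and 0.27 ± 0.18 (adjusted p = 0.36, or adjusted p = 0.015 with the block) in zed1-D at 48 h.

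OPCL1 is the peroxisomal ligase that attaches coenzyme A to the reduced product ahead of beta-oxidation. OPCL1 libraries stood at 51.8, 62.4, 56.9 and 60.1 CPM in WT replicate 1 at 0, 3, 12 and 48 h, and at 40.0, 55.1, 46.8 and 47.8 CPM in WT replicate 2. OPCL1 in zed1-D stood at 54.1, 75.6, 167 and 88.8 CPM in replicate 1 and 42.7, 63.2, 122 and 68.6 CPM in replicate 2 at these times. WT covered 40.0 to 62.4 CPM over all times, and every zed1-D library from 3 h on lay above that range. OPCL1 was 2.80-fold higher in zed1-D at 12 h (log2 1.48 ± 0.23, adjusted p = 0.0015), and this held in all 16 omissions. The difference was 0.24 ± 0.23 at 3 h (adjusted p = 0.96) and 0.55 ± 0.23 at 48 h (adjusted p = 0.14, or adjusted p = 5.3e-06 with the block). Within zed1-D it rose by 1.58 ± 0.23 by 12 h (adjusted p = 0.00079), and at 48 h it was 0.70 ± 0.23 above 0 h (adjusted p = 0.05, just under the threshold, held in 3 of 16 omissions). DESeq2 did not call the 48 h rise (adjusted p = 0.057). At 3 h OPCL1 was above 0 h by 0.36 ± 0.23 (adjusted p = 0.66, or adjusted p = 0.0032 with the block) in WT and 0.52 ± 0.23 (adjusted p = 0.34, or adjusted p = 3.3e-05 with the block) in zed1-D.

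JAR1, which makes the active isoleucine conjugate, stood at 87.5, 68.6, 75.3 and 76.9 CPM in WT replicate 1 at 0, 3, 12 and 48 h, and at 60.2, 44.5, 55.1 and 58.2 CPM in WT replicate 2. JAR1 in zed1-D stood at 81.1, 75.2, 82.7 and 71.7 CPM in replicate 1 and 54.7, 54.7, 65.7 and 56.1 CPM in replicate 2 at these times. The genotypes overlapped at every time. It was the member called in none of the 13 comparisons without the block. Its genotype differences were -0.12, 0.20, 0.19 and -0.08 at 0, 3, 12 and 48 h, and the 95% interval at 12 h ran from -0.48 to 0.86, a range that holds the OPR3 difference of 0.76. With the block the only call was a lower level in WT at 3 h than at 0 h (-0.39 ± 0.30, adjusted p = 0.77, or adjusted p = 0.0016 with the block).

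The interaction terms ask whether the change since 0 h differed between the genotypes. By 12 h the change was larger in zed1-D for AOC3 (2.55 ± 0.26, adjusted p = 0.0007), LOX4 (1.91 ± 0.45, adjusted p = 0.043) and OPCL1 (1.41 ± 0.32, adjusted p = 0.038), 3 of 10 against 2.98% of all genes. AOC3 held in all 16 single-library omissions, OPCL1 in 4 and LOX4 in 1, with adjusted p of 0.16 and 0.18 without WT 12 h replicate 2. LOX3 (1.28 ± 0.41, adjusted p = 0.16, or adjusted p = 1.5e-05 with the block), OPR3 (0.82 ± 0.26, adjusted p = 0.15, or adjusted p = 4e-05 with the block), AOC2 (0.59 ± 0.33, adjusted p = 0.57, or adjusted p = 0.00018 with the block) and LOX2 (0.34 ± 0.52, adjusted p = 0.99, or adjusted p = 0.037 with the block) were called only with the block, which brought the count to 7 higher (12.9% of all genes) and none lower (7.24%). By 48 h AOC3 alone was called (1.08 ± 0.26, adjusted p = 0.043; 2.52% of all genes higher and 1.18% lower), and this held in 3 of 16 omissions, with adjusted p = 0.21 without WT 0 h replicate 2. The blocked fit called 5 genes lower at 48 h (14.0% of all genes): LOX2 (-1.26 ± 0.52, adjusted p = 0.27, or adjusted p = 1.2e-11 with the block), AOC1 (-1.56 ± 0.42, adjusted p = 0.07, or adjusted p = 0.00021 with the block), AOC2 (-0.96 ± 0.33, adjusted p = 0.16, or adjusted p = 3.6e-08 with the block), AOS (-0.80 ± 0.35, adjusted p = 0.3, or adjusted p = 4.4e-05 with the block) and OPR3 (-0.55 ± 0.26, adjusted p = 0.35, or adjusted p = 0.0039 with the block). It called 2 higher (13.2%), AOC3 and OPCL1 (0.47 ± 0.32, adjusted p = 0.6, or adjusted p = 0.0075 with the block). By 3 h none was called without the block (1.03% of all genes higher, 0.0362% lower; 2 had an unadjusted edgeR p under 0.05 and DESeq2 called 0), and AOS, AOC1 and AOC2 (-0.47 ± 0.33, adjusted p = 1, or adjusted p = 0.0079 with the block) were lower with it (1.35%) and none higher (4.31%).

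Markers of flower tissue, leaf and time of day moved with some of these comparisons, and their part in the results was not tested. At 12 h the 3 tested pollen genes of 4 were higher in zed1-D (7.87% of all genes), and the summed pollen level was 20.5 and 22.4 CPM against 5.61 and 4.39 in WT. The same sum was highest in WT at 48 h (37.8 and 28.9 CPM), where LOX4 and AOC3 stood at 10.5 to 14.4 CPM. All 7 floral organ identity genes had positive differences at 12 h, SEP1 and SEP2 being called without the block and AP3 (0.72 ± 0.40, adjusted p = 0.39, or adjusted p = 0.00057 with the block), PI (0.63 ± 0.42, adjusted p = 0.5, or adjusted p = 0.006 with the block) and SEP3 (0.42 ± 0.26, adjusted p = 0.43, or adjusted p = 0.028 with the block) only with it. Their summed level was 71.0 and 91.6 CPM in zed1-D and 52.4 and 56.7 CPM in WT. At 48 h AP1 (-0.76 ± 0.23, adjusted p = 0.046) and the pollen gene VGD1 (-0.77 ± 0.20, adjusted p = 0.022) were lower in zed1-D. AP3, SEP3 and the pollen gene LAT52-type were lower only with the block (adjusted p = 7.8e-05, 0.0056 and 0.044). No floral identity or pollen gene was called higher at that time in either fit. Of 3 tested tapetum genes A6 and AMS were lower in zed1-D at 48 h (6.24% of all genes), and all 3 with the block (23.5%). LOX2 and OPR3 were lower at 48 h too, and the summed tapetum level was 15.2 and 10.7 against 49.5 and 32.9 CPM. Summed leaf photosynthesis genes were at 31561 and 28229 CPM in zed1-D and 39369 and 34668 CPM in WT at 12 h. Of the 6 genes 1 was lower without the block (1.82% of all genes) and 6 with it (15.3%). The morning clock genes LHY and CCA1 were above 0 h at 3 h and 48 h in both genotypes. The summed level of all 9 listed clock genes ran from 259 to 395 CPM over the 16 libraries. At 48 h LHY held 40.2 and 35.3 CPM in zed1-D against 10.4 and 8.33 in WT (2.02 ± 0.29, adjusted p = 0.00091). The labels give no sampling clock time. None of 8 reference genes was called in any comparison without the block, and their blocked results are not given here.

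Other genes were chosen by name for their step in the pathway or as relatives of its enzymes. Among them the genes that break down or modify jasmonate differed most. Of 11 turnover genes 8 were tested, and 7 of these were higher in zed1-D at 12 h (7.87% of all genes), with a median of 2.74 beside 0.00 over all genes. ST2A, a sulfotransferase of hydroxylated jasmonate, held 43.1 and 37.1 CPM in zed1-D and 0.647 and 1.01 in WT at 12 h (5.47 ± 0.33, adjusted p = 5.1e-06). JOX3, a jasmonate oxidase, held 43.1 and 32.1 against 2.37 and 2.03 CPM (4.11 ± 0.25, adjusted p = 5.1e-06). JOX2, another of these oxidases, held 56.7 and 75.5 against 6.90 and 8.02 CPM (3.13 ± 0.20, adjusted p = 7.6e-06). ST2A and JOX3 had larger log2 differences at 12 h than any of the 10 synthesis genes, and JOX2 than all of them but AOC3. At 48 h ST2A was back at 3.80 and 2.48 CPM in zed1-D, and JOX3 was still at 26.4 and 25.4 against 5.79 and 6.29 CPM (2.09 ± 0.22, adjusted p = 9.9e-05), among 5 turnover genes higher at that time (8.32% of all genes). At 3 h 2 were higher (2.83% of all genes), of which JOX3 held 8.21 and 5.49 against 1.15 and 1.49 CPM (2.28 ± 0.28, adjusted p = 0.00061). In WT ST2A rose by 3 h from 1.12 and 0.475 to 3.67 and 3.17 CPM (2.21 ± 0.38, adjusted p = 0.014), and IAR3, an amidohydrolase that splits jasmonoyl-isoleucine, rose from 32.1 and 36.4 to 62.7 and 71.8 CPM (0.97 ± 0.16, adjusted p = 0.011).

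**Figure D4:**
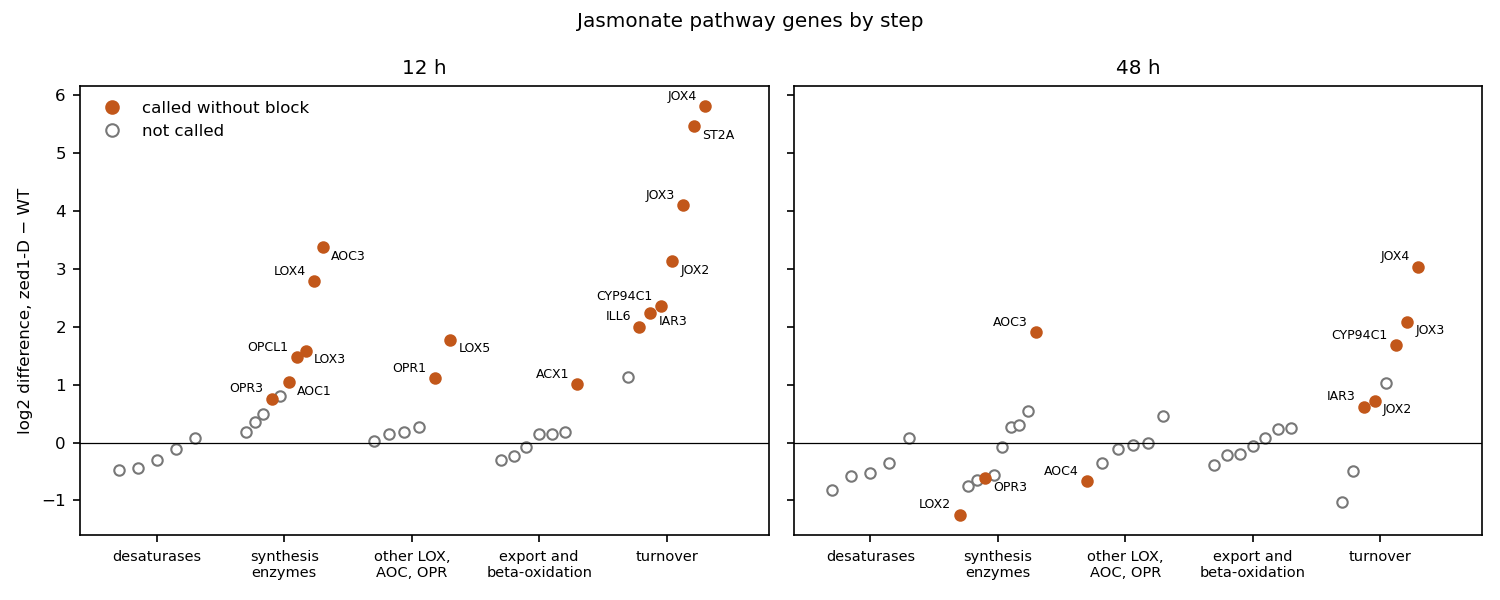
Log2 difference of zed1-D from WT at 12 h (left) and 48 h (right) for every tested gene of each pathway step and of the related LOX, AOC and OPR genes, 1 point per gene, filled and named where edgeR without a block called it. Turnover genes reach the highest values at 12 h (ST2A 5.47, JOX3 4.11), and JOX4, with 0.216 and 0 CPM in the WT libraries of 12 h, is drawn at a fitted value that is no bound on its fold.

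Of the steps before the lipoxygenases only the desaturases could be tested. The lipase genes DAD1 and DGL, with at most 2 and 6 counts in any library, did not pass the expression filter. Of 7 desaturase and lipase genes 5 were tested and none was called in any of the 13 comparisons without the block, while the block had 2, 3 and 4 of them lower in zed1-D at 3, 12 and 48 h, beside 8.04%, 15.3% and 23.5% of all genes. Between the genotypes at 12 h edgeR gave 0 of these 5 an unadjusted p under 0.05 and DESeq2 called 0, and at 48 h these counts were 1 and 1. Beta-oxidation was represented by 7 genes, of which ACX1, the acyl-CoA oxidase of its first step, was higher in zed1-D at 12 h (209 and 176 against 104 and 87.2 CPM, 1.02 ± 0.22, adjusted p = 0.011). A further 6 lipoxygenase, cyclase and reductase genes were listed by family and not by a role in jasmonate synthesis. Of these, LOX5 (82.5 and 61.5 against 22.0 and 19.9 CPM, 1.78 ± 0.36, adjusted p = 0.0077) and OPR1 (47.7 and 52.6 against 22.0 and 24.2 CPM, 1.12 ± 0.18, adjusted p = 0.0019) were higher at 12 h. At 3 h OPR1 was already higher (33.2 and 41.7 against 18.1 and 20.9 CPM, 0.94 ± 0.18, adjusted p = 0.013), and LOX5 held 42.2 and 31.2 against 20.7 and 10.9 CPM (1.25 ± 0.36, adjusted p = 0.12, or adjusted p = 4.6e-09 with the block). OPR1 shares 12.3% of its 50-base exon windows with OPR2, so reads from these windows may be missing from the counts of both. At 48 h AOC4 was lower in zed1-D (81.4 and 78.4 against 137 and 115 CPM, -0.66 ± 0.19, adjusted p = 0.038), the direction of AOC2 there and opposite to AOC3. Of 11 perception and output genes 5 were higher at 12 h (7.87% of all genes), among them JAZ9 (1.64 ± 0.11, adjusted p = 1e-05), and at 48 h the storage protein genes VSP2 (-2.29 ± 0.30, adjusted p = 0.00049) and VSP1 (-1.91 ± 0.30, adjusted p = 0.0015) were among 3 lower (6.24%).

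Profiles over the 8 group means were compared as root-mean-square distances between log2 CPM values, each centred on its own mean, as a description with no test. Among the synthesis genes AOC2 and OPR3 were closest (0.117), followed by AOC2 and AOS (0.160) and by AOS and OPR3 (0.192). AOC3 (1.15) and LOX4 (0.814) were the members farthest from AOS, and LOX2 lay at 0.255. Outside the pathway list the 5 genes nearest to AOS, leaving out genes averaging under 2 in log2 CPM, were AT1G79910 (0.134), NPC3 (0.138), AT5G10830 (0.163), NDL1 (0.163) and AT2G46735 (0.165). All of these points share the same libraries.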

How the data were processed

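Per the file headers, the authors deposited for each library the number of uniquely mapped reads per gene as a raw count, beside an RPKM value. The submitters' processing notes name TAIR 10; the aligner, counter and strand option were not given in the sources used here. Each file lists genes with at least 1 read, and a gene missing from a file was taken as 0. The deposited RPKM values were recomputed from the counts as a check only (largest relative difference 5.9e-08).

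Counts were tested with edgeR 4.0.16 in R 4.3.3 (TMM factors, filterByExpr, quasi-likelihood fit of 8 group means over 16 libraries), with Benjamini-Hochberg adjustment over all 19312 tested genes in each of 13 contrasts and a threshold of 0.05. CPM values are per 1 M counts of each library, scaled by TMM factors. Only the unblocked edgeR fit for zed1-D against WT at 12 h was tried on simulated counts. These had less spread between libraries than the data and no replicate offset. The members and the lists were chosen with earlier results of these data known. Genes beside the members were named by rule, as up to 3 called genes of each list and comparison with the smallest p.

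The labels number the 2 replicates of each group alike. Same-numbered libraries deviated together from their group means in all 28 pairs of groups (correlation 0.53 to 0.71, median 0.65), so the numbers were taken to pair the libraries, and a fit with the replicate number as a block is given where it changes a call. The common biological coefficient of variation was 22.6% without the block and 5.67% with it. Alternatives were DESeq2 1.42.0, RLE factors, no expression filter, the block, the compared groups alone, counts thinned to 4742719 per library, and leaving out each library. Upstream sequences and gene positions come from the TAIR10.1 reference. Protein sequences were not used here.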

Additional observations from a re-analysis of the deposited data

Results flagged for a closer look

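Changes since 0 h that differed between the genotypes by the interaction test in edgeR without a block were larger in zed1-D by 12 h for LOX4 (log2 1.91, adjusted p = 0.043), AOC3 (2.55, adjusted p = 0.0007) and OPCL1 (1.41, adjusted p = 0.038). By 48 h the same test called AOC3 (1.08, adjusted p = 0.043). Groups of 2 libraries are too small to be screened for a single deviating library.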

How the results depend on the processing

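Without a block 27 results for the 10 genes were called, and 26 were called by DESeq2, 21 with RLE factors, 24 without a filter, 22 after thinning, 11 with the compared groups alone and 313 of 432 in single-library omissions. The replicate block kept all 27, called another 56 and changed no other call.

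With the block the members called numbered 3, 6 and 7 for zed1-D against WT at 0, 3 and 48 h, 8, 5 and 8 for WT at 3, 12 and 48 h against 0 h, 6 and 5 for zed1-D at 3 and 48 h, and 3, 7 and 7 for the interactions at 3, 12 and 48 h. With the compared groups alone they numbered 0 and 1 for zed1-D against WT at 3 and 48 h, 0 for WT at 3 and 48 h, 0, 4 and 1 for zed1-D at 3, 12 and 48 h, and 1 and 0 for the interactions at 12 and 48 h. RLE factors gave 1 for the genotypes at 48 h, 1 for zed1-D at 48 h and 1 for the interaction at 12 h. Thinning gave 1 for the genotypes at 48 h and 0 for WT at 48 h, no filter gave 0 for the interaction at 48 h, and DESeq2 gave 1 for zed1-D at 48 h.

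Over single-library omissions the counts ran from 0 to 0, 1 to 1, 3 to 7 and 1 to 3 for the genotypes at 0, 3, 12 and 48 h. They ran from 1 to 1, 0 to 0 and 0 to 1 for WT, 0 to 1, 4 to 8 and 1 to 2 for zed1-D, and 0 to 0, 1 to 2 and 0 to 1 for the interactions, each at 3, 12 and 48 h. An omission leaves a group with 1 library, assumed to vary like the others. Sign changes were looked for only among results called with or without the block, and occurred only where the block alone gave the call. AOC2 between genotypes at 3 h ran from -0.446 without WT 3 h replicate 2 to 0.0012 without WT 3 h replicate 1. The LOX2 interaction at 12 h ran from -0.0469 without WT 0 h replicate 1 to 0.635 without WT 0 h replicate 2. It was -0.01 without zed1-D 12 h replicate 1. The causes were not tested. Library totals limit the weakest genes most, AOC1 with 21 counts in WT 0 h replicate 1.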
